A study of Arabidopsis thaliana with 6 samples.

Results

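The 10 Arabidopsis genes described here encode sugar transport proteins (STP): STP1 (AT1G11260), STP2 (AT1G07340), STP4 (AT3G19930), STP6 (AT3G05960), STP8 (AT5G26250), STP9 (AT1G50310), STP10 (AT3G19940), STP11 (AT5G23270), STP13 (AT5G26340) and STP14 (AT1G77210). They were taken by gene identifier, as members of 1 transporter family, out of 32833 genes with a value. Earlier results of these data were known when the genes were chosen. RNA-seq was run on anthers of ice1-2, a homozygous T-DNA line of the bHLH transcription factor gene ICE1 in the Col-0 ecotype, and of Col-0 wild type, with 3 libraries (A, B and C) for each genotype. All plants grew in long days, and anthers of stages 9 to 13 were collected together (flower stages in the methods, anther stages in the labels), so a library mixes microspore, pollen, tapetum and wall tissue. ice1-2 is 1 insertion line, and it is not stated whether the libraries came from separate plants, so a p reflects no more than how the libraries spread.

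STP proteins sit in the plasma membrane and carry a hexose into the cell together with a proton. Microspores and pollen have no cytoplasmic bridges to the surrounding tissue, so the sugar that feeds them crosses the fluid of the locule: sucrose is released, cell wall invertases split it, and STP proteins take up the glucose and other monosaccharides. Several members are known as genes of single pollen stages, whereas others serve roots, guard cells or tissue under stress.

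Values are FPKM, which divides a gene's fragments by its transcript length and by the size of the library, so that levels of different genes can be compared. ICE1 itself was not lower in the ice1-2 libraries, at 12.9, 15.4 and 21.5 FPKM, against 12.7, 9.25 and 14.0 FPKM in Col-0 (BH-adjusted p = 0.323 from limma). A single value per gene does not show the insertion in an ICE1 exon, so it checks no label. Of 12 markers of the tapetum, the cell layer that nourishes the microspores, 10 were highest in Col-0 A. For 9 of the 12, ice1-2 B and Col-0 A were the highest pair. For the rest, GRP17 among them, ice1-2 C was second to Col-0 A. The markers' summed FPKM was 1499, 1565 and 1968 in ice1-2, against 4514, 1326 and 1047 in Col-0, most of it from GRP17. Without GRP17 the other 11 summed to 180, 373 and 306 FPKM in ice1-2, against 708, 52.4 and 63.7 FPKM in Col-0. The summed FPKM of 15 pollen markers was 6174 to 9185 in ice1-2 and 10176 to 12390 in Col-0, and that of 8 markers of green tissue was 1752 to 3076 in ice1-2 and 950.1 to 1143 in Col-0. Of the green tissue markers 4 were called higher, led by RBCS2B, GAPB and RBCS3B (log2 fold changes of 2.50, 1.65 and 1.61), and of the pollen and tapetum markers none was called. Over all genes tested 1.78% were called, counting either direction. The median log2 fold change of the 18858 tested genes was 0.15, and -0.02 once the libraries were scaled by median ratio, so that a fold change near 0.15 is the middle of the table.

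The pollen transporters led the family in both genotypes. STP11 ranked highest and STP9 next, at means of 258 ± 58.1 and 166 ± 29.5 FPKM in ice1-2 and 344 ± 61.5 and 249 ± 88.1 FPKM in Col-0 (SD, n = 3 each), and STP11 stood above STP9 in every library although their ranges overlapped within each genotype. In ice1-2, STP6, STP4, STP2, STP1, STP13 and STP14 followed in that order, with means of 67.9 down to 8.50 FPKM. STP9 and STP6, STP6 and STP4, and STP1 and STP13 did not overlap in range there, whereas STP4, STP2 and STP1 overlapped each with the next. In Col-0 the order was STP1, STP6, STP4, STP2, STP13 and STP14, with means of 96.6 down to 6.50 FPKM, and each overlapped with the next. STP1 thus ranked 6 of 10 in ice1-2 and 3 of 10 in Col-0. STP8 and STP10 stayed under 1 FPKM in all 6 libraries, below all other members.

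**Figure D1:**
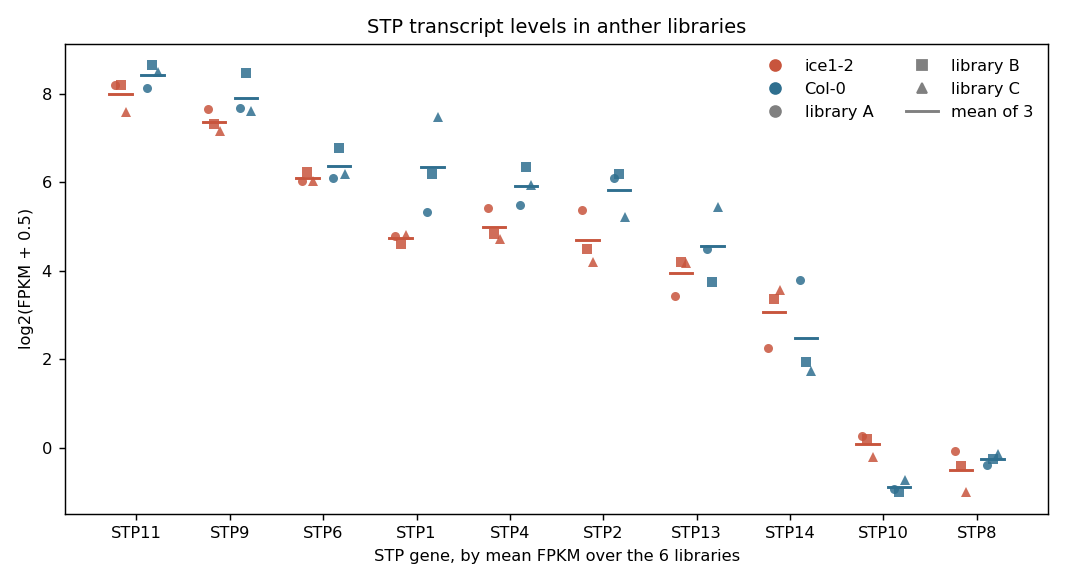
Level of each STP gene in each anther library, as log2(FPKM + 0.5), with ice1-2 left of Col-0, a symbol for each library letter and a line for the mean of 3 libraries. STP11 and STP9 lie highest, STP10 and STP8 lowest, and the 3 ice1-2 points lie below the 3 Col-0 points for STP1 and STP4 and above them for STP10.

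ice1-2 was compared with Col-0 gene by gene, and none of the 10 members passed the test used here. Passing, or being called, took a BH-adjusted p under 0.05 from limma together with a log2 fold change above 1 or below -1, on log2(FPKM + 0.5), a scale that understates the change of low genes. The authors, who tested read counts at the same limits, reported STP1 and STP4 among the transporter genes down-regulated in ice1-2 anthers. Of the 8 members with at least 1 FPKM in at least 3 libraries 0 were called, where 1.78% of the 18858 genes tested were, and STP8 and STP10, fitted without that filter, were not called either, where 0.101% of 27825 genes were. Of the same 8 members 3, STP1, STP2 and STP4, had an unadjusted p under 0.05, all with a negative fold change, beside 21.4% of all tested genes. The fold change was negative for 7 of the 8, all but STP14, and their median was -0.58 (-0.76 after median-ratio scaling), beside 0.15 (-0.02) for all genes tested. Of the 4 STP genes outside this group 3 were tested. Their fold changes were all positive, with a median of 0.30 (0.13).

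**Figure D2:**
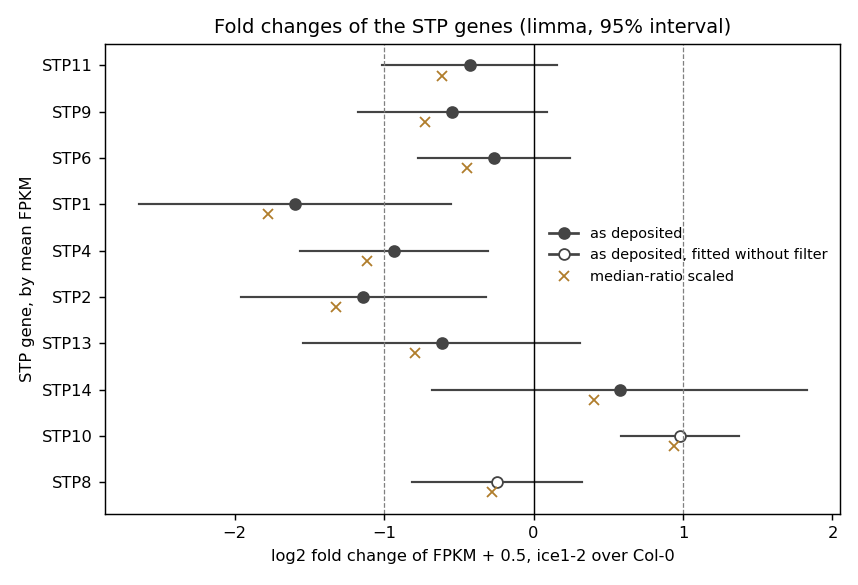
Log2 fold change of each STP gene, ice1-2 over Col-0, on the log2(FPKM + 0.5) scale, with its 95% interval from limma (circles, open where fitted without the filter) and the value after median-ratio scaling (crosses); dashed lines mark the limits of 1 in either direction. The intervals of STP1, STP2 and STP4 lie below 0 and that of STP10 above 0, yet no adjusted p was under 0.05.

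STP1 is a high-affinity hexose symporter of sink tissue and guard cells, and of the 8 members that passed the filter it had the fold change farthest from 0. Its FPKM was 27.1, 23.8 and 27.6 in ice1-2, against 39.9, 72.1 and 178 in Col-0. All ice1-2 libraries lay below all Col-0 libraries and close to each other, whereas the Col-0 libraries differed widely among themselves. The log2 fold change was -1.60 (SE 0.46, 95% interval -2.64 to -0.55, BH-adjusted p = 0.101 from limma), and only 0.26% of the genes tested had a lower one. Without Col-0 A it was -2.10 (SE 0.35) and the gene was called (BH-adjusted p = 0.0192 from limma). It was -1.02 without Col-0 C, the highest library, and not called (the range over each library left out is -2.10 to -1.02). Without both ice1-2 B and Col-0 A it was -2.03 (BH-adjusted p = 0.00143 from limma). That setting was chosen after seeing the data and leaves out the Col-0 library nearest to ice1-2 in STP1. Over all genes it called 728, against 335 in the main fit. In bulk tissue, fewer cells of a type and less RNA per cell cannot be told apart.

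Since STP1 is known from guard cells, 8 guard cell markers are given beside it. Their summed FPKM was 22.7, 28.5 and 34.8 in ice1-2, against 60.5, 45.7 and 40.9 in Col-0, so it was lower in every ice1-2 library. Within Col-0 the sum, KAT1 and GORK ran in the opposite order to STP1. FAMA ran in the same order as STP1 there, and the other markers in neither order. TGG1 and KAT1 made up most of this sum. Of the 8, 5 (TGG1, SLAC1, HT1, FAMA and ALMT12) were lower in every ice1-2 library than in any Col-0 library, as were 6.52% of the 27825 genes fitted without the filter, and all but TGG1 failed the filter. Of the 4 that were tested 1 was called, where 1.78% of all genes tested were. This was TGG1, the myrosinase of guard cells and phloem idioblasts, with 8.30, 12.3 and 16.4 FPKM in ice1-2, against 38.7, 39.1 and 33.6 FPKM in Col-0. SLAC1, HT1, FAMA and ALMT12 were each listed at 0 in ice1-2 A. FAMA, the factor that sets guard cell identity, was listed at 0 and had 0.265 and 0.114 FPKM in ice1-2, against 0.907, 0.909 and 1.30 FPKM in Col-0. KAT1, MYB60 and GORK overlapped between genotypes, with KAT1, a potassium channel gene, at 12.1, 13.0 and 15.9 FPKM in ice1-2, against 17.3, 2.91 and 2.52 FPKM in Col-0. The part of guard cells in the level of STP1 was not tested.

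STP4, a symporter of sinks such as root tips and anthers that is known to be induced by wounding and pathogens, had 42.3, 28.1 and 25.7 FPKM in ice1-2, against 44.0, 80.6 and 61.2 FPKM in Col-0. The groups did not overlap, but ice1-2 A and Col-0 A lay next to each other. Its log2 fold change was -0.93 (SE 0.28, 95% interval -1.56 to -0.30, BH-adjusted p = 0.108 from limma). STP1 and STP4 were the 2 of 8 filtered members with every ice1-2 library below every Col-0 library, a pattern that 7.39% of all genes tested had.

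STP2 is known from early male gametophytes, where it appears as microspores leave the tetrad. Its FPKM was 41.2, 21.9 and 17.9 in ice1-2, against 68.1, 72.2 and 36.4 in Col-0. Only ice1-2 A overlapped with Col-0, through Col-0 C, and the log2 fold change was -1.14 (SE 0.36, 95% interval -1.96 to -0.32, BH-adjusted p = 0.123 from limma). When limma gave each library a quality weight, STP2 (-1.25, BH-adjusted p = 0.0448 from limma) and STP4 (-1.01, BH-adjusted p = 0.0420 from limma) were called and STP1 was not (BH-adjusted p = 0.0537 from limma).

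ICE1 is a bHLH protein, and proteins of this class bind the E-box, CANNTG. The 250 bases before the annotated start of STP1 and STP4, the genes with no overlap between genotypes, are shown with this motif in capitals, which reads the same on both strands and was searched with no other motif.
STP1, chr1:3776986-3777235, + strand: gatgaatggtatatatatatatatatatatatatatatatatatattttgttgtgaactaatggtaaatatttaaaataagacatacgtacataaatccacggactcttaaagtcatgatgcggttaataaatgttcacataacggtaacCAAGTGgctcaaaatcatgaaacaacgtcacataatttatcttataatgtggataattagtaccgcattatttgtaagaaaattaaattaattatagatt
STP4, chr3:6934318-6934567, + strand: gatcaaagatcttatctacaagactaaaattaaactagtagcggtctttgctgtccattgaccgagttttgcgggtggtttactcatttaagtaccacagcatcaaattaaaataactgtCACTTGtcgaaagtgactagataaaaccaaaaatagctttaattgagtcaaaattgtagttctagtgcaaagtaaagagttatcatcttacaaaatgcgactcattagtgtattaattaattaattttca
Each window held 1 E-box, starting 100 bases before the start of STP1 and 130 bases before that of STP4, on RefSeq's TAIR10.1. Of the 10 members 6 held at least 1, with 2 in STP2, 1 each in STP6, STP11 and STP14, and none in STP8, STP9, STP10 or STP13. Since 55.3% of 27443 protein-coding genes had one in a window of this length, the motif did not set the family apart. A match is a run of letters and not a shown binding site.

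The late pollen genes carried most of the family's transcripts. STP6, STP9 and STP11 are transporters of mature pollen and pollen tubes, and STP9 is known to prefer glucose. STP11 had 291, 291 and 191 FPKM in ice1-2, against 277, 398 and 358 FPKM in Col-0. STP9 had 199, 158 and 142 FPKM in ice1-2, against 204, 351 and 193 FPKM in Col-0. STP6 had 64.4, 74.8 and 64.5 FPKM in ice1-2, against 68.3, 109 and 72.4 FPKM in Col-0. Each of the 3 overlapped between genotypes, and the interval of each fold change included 0: -0.43 for STP11 (SE 0.26, 95% interval -1.01 to 0.16), -0.54 for STP9 (SE 0.28, 95% interval -1.17 to 0.09) and -0.26 for STP6 (SE 0.22, 95% interval -0.77 to 0.24). Single libraries moved these values: without Col-0 B that of STP9 was -0.27 and that of STP6 -0.05, and without ice1-2 C that of STP11 was -0.22. The pollen markers had a median log2 fold change of -0.46, within the range of these 3 fold changes, and 0 of 15 were called. Of the 15 markers 8 had every ice1-2 library below every Col-0 library, as did 7.39% of the 18858 genes tested. The 3 transporters did not have this pattern. The relation of these transporters to the markers was not tested.

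Counted together, the 10 members summed to 681, 626 and 498 FPKM in ice1-2, against 737, 1099 and 946 FPKM in Col-0. The sum was lower in every ice1-2 library, with 602 ± 94.1 FPKM in ice1-2 and 927 ± 182 FPKM in Col-0 (SD, n = 3 each, exact two-sided permutation p = 0.1, the smallest that 3 against 3 can give). Taken as a share of that sum, which does not depend on scaling between libraries, STP6, STP9 and STP11 made up 81.4%, 83.6% and 79.8% in ice1-2, against 74.5%, 78.0% and 66.0% in Col-0 (exact two-sided permutation p = 0.1). This pooled share rises when the other members fall, and STP6, STP9 and STP11 themselves had negative fold changes. The tests of the sum and of the pooled share were not planned. STP11 alone held 42.5% ± 4.12 in ice1-2 and 37.2% ± 0.925 in Col-0 (SD, n = 3 each, exact two-sided permutation p = 0.1), with every ice1-2 library above every Col-0 library. The share of STP1 was 3.98%, 3.80% and 5.54% in ice1-2, against 5.41%, 6.56% and 18.8% in Col-0, and the groups overlapped (exact two-sided permutation p = 0.2). Shares were compared for all 10 members, and the design cannot reach an adjusted p under 0.05.

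**Figure D3:**
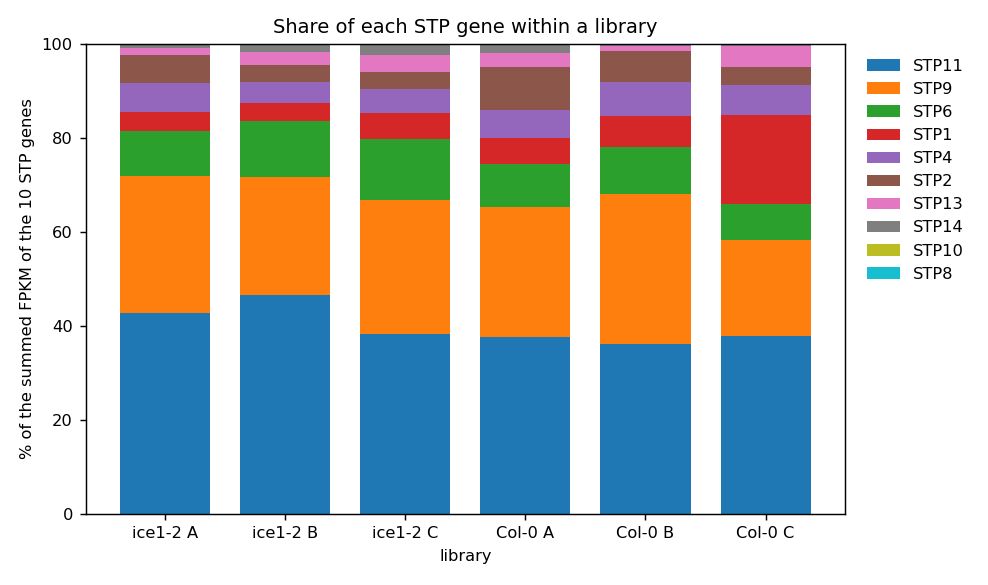
Share of each STP gene, in percent of the summed FPKM of the 10 genes, stacked for each anther library, ice1-2 to the left. STP11, STP9 and STP6 fill 79.8% to 83.6% of the ice1-2 bars and 66.0% to 78.0% of the Col-0 bars, and STP1 is widest in Col-0 C at 18.8%.

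STP10, a transporter known from growing pollen tubes, was the member with the opposite pattern, at a very low level. Its FPKM was 0.717, 0.659 and 0.365 in ice1-2, against 0.0268, a listed 0 and 0.104 in Col-0. All ice1-2 libraries lay above all Col-0 libraries, as for 16.2% of the 27825 genes fitted without the filter. The log2 fold change was 0.98 (SE 0.17, 95% interval 0.58 to 1.38, BH-adjusted p = 0.0850 from limma), and it was 0.59 with a pseudocount of 1 and 2.27 with 0.1. With quality weights it was 1.02 and the gene was called (BH-adjusted p = 0.0462 from limma). By a rough estimate of depth from the steps between low values, 1 fragment of STP10 was worth 0.0329 to 0.0554 FPKM in ice1-2 and 0.0238 to 0.0291 FPKM in Col-0, so its Col-0 values rest on a few fragments at most.

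STP10 starts 1013 bp after the end of STP4 on the same strand of chromosome 3 (STP4 from 6934568 to 6937197, STP10 from 6938211 to 6939975, TAIR10.1). The pair differed in opposite directions: the log2 ratio of STP10 to STP4 within a library, with 0.5 FPKM added to each, was -5.14, -4.62 and -4.92 in ice1-2, against -6.40, -7.34 and -6.67 in Col-0. The ratio was higher in every ice1-2 library, by 1.91 on average (exact two-sided permutation p = 0.1, the smallest possible). Since STP10 was higher and STP4 lower in every ice1-2 library, this outcome was fixed by the single genes and adds no separate evidence. Its size depended on the amount added: the difference was 3.21 with 0.1 FPKM added and 1.51 with 1 FPKM added. The gene before STP4, AT3G19920, had 0.179 FPKM in ice1-2 A and was listed at 0 in the other 5 libraries. The gene after STP10, AT3G19950, had 11.0, 13.2 and 14.1 FPKM in ice1-2, against 12.5, 9.56 and 12.6 FPKM in Col-0, with overlapping groups.

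STP8, for which no clear role is known, had 0.451, 0.256 and a listed 0 FPKM in ice1-2, against 0.271, 0.347 and 0.413 FPKM in Col-0. The groups overlapped, the log2 fold change was -0.24 (SE 0.24, 95% interval -0.81 to 0.32, BH-adjusted p = 0.631 from limma), and it was 0.01 without ice1-2 C and -0.45 without ice1-2 A.

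Both low members have a close relative among the high ones, so their sequences bear on what reads can tell apart. Over the 45 pairs of members, 57.9% to 81.5% of aligned coding bases were identical, with a median of 61.4%. STP6 and STP8 were the most alike pair at 81.5%, and STP9 and STP10 came next at 80.2%. The most alike 100 bases of each pair, the length of a read, are shown from RefSeq's TAIR10.1, with the bases that differ in capitals.
STP9, chr1:18637751-18637850, + strand: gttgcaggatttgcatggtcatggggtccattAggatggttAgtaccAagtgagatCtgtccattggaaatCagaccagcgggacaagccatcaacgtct
STP10, chr3:6939622-6939721, + strand: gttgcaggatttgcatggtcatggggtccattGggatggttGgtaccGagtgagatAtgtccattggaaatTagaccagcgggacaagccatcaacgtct
STP6, chr3:1785032-1785256, - strand, across an intron: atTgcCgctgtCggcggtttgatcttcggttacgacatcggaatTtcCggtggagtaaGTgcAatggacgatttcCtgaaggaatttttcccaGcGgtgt
STP8, chr5:9196839-9197078, + strand, across an intron: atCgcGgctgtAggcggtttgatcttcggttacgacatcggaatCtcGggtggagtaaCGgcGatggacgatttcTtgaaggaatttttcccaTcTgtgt
STP9 and STP10 differed at 5 of these 100 bases and STP6 and STP8 at 11. No pair shared an identical run of 100 coding bases, the longest being 38 bases in STP9 and STP10, so a whole coding read without errors always held a difference. How reads that fit both copies were counted is not stated. Within ice1-2 both STP9 and STP10 were highest in A and lowest in C, whereas between genotypes STP9 overlapped and STP10 did not. Across all libraries STP9 was highest in Col-0 B, at 351 FPKM, where STP10 was listed at 0. The part of reads from STP9 in the STP10 values was not tested.

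**Figure D4:**
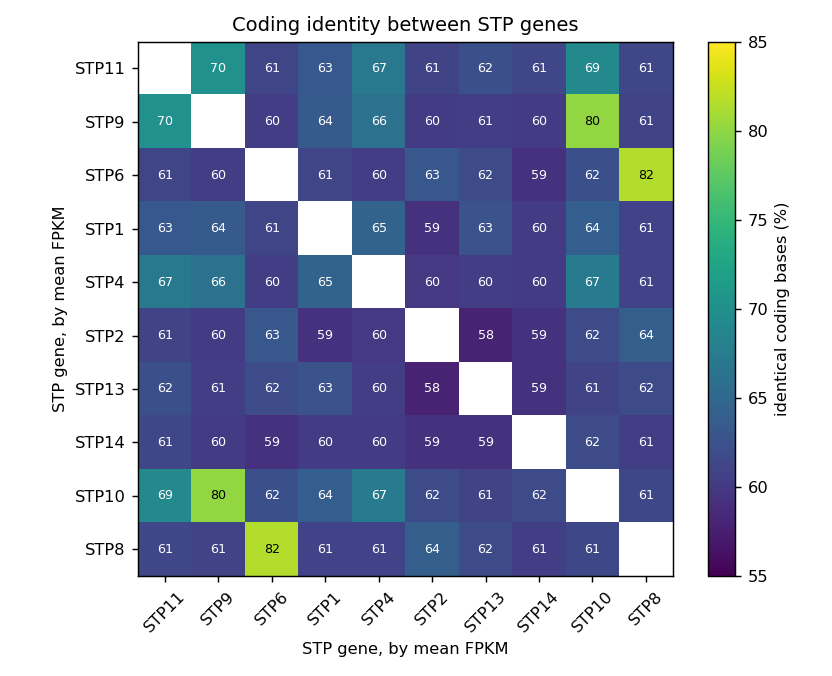
Percent of identical coding bases for each pair of STP genes, by colour and number, with genes in order of mean FPKM. The 2 brightest pairs, STP6 with STP8 (81.5%) and STP9 with STP10 (80.2%), each join a pollen transporter at high level with a member under 1 FPKM.

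STP13 and STP14 varied widely between libraries of 1 genotype. STP13 is induced under pathogen attack and programmed cell death, and had 10.3, 17.9 and 17.7 FPKM in ice1-2, against 22.1, 12.8 and 42.6 FPKM in Col-0. Its log2 fold change was -0.62 (SE 0.41, 95% interval -1.55 to 0.31, BH-adjusted p = 0.414 from limma), and it was -0.18 with Col-0 C left out, -0.36 with ice1-2 A left out and -1.03 with Col-0 B left out. STP14, which is known to carry galactose rather than glucose, had 4.31, 9.75 and 11.4 FPKM in ice1-2, against 13.3, 3.35 and 2.85 FPKM in Col-0. Col-0 A, the library with the highest tapetum marker sum, also held the highest STP14 value, and the other Col-0 libraries lay below all ice1-2 libraries. With all libraries the log2 fold change was 0.58 (SE 0.55, 95% interval -0.68 to 1.83, BH-adjusted p = 0.577 from limma), and single libraries moved it in both directions. It was 1.22 without Col-0 A (BH-adjusted p = 0.107 from limma) and 0.98 without ice1-2 A, but 0.20 without Col-0 C, 0.30 when Col-0 B was left out and 0.32 when ice1-2 C was. Without both ice1-2 B and Col-0 A it was 1.08 (BH-adjusted p = 0.127 from limma). The part of the tapetum in these values was not tested.

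**Figure D5:**
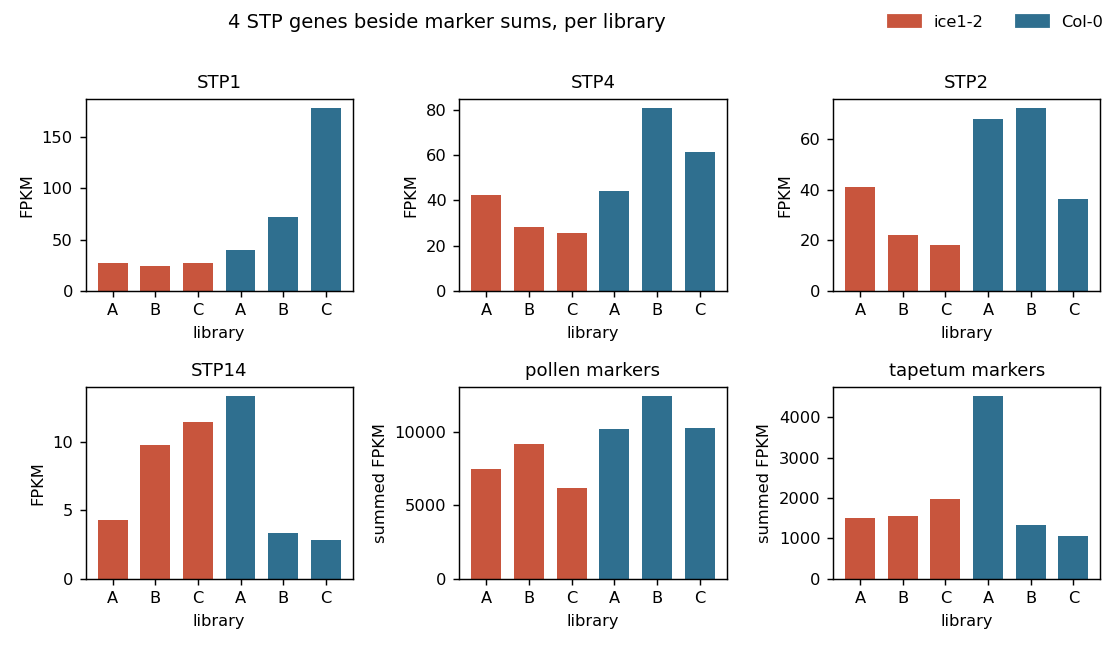
FPKM of STP1, STP4, STP2 and STP14, and summed FPKM of 15 pollen and 12 tapetum markers, in each anther library, ice1-2 to the left of Col-0. STP14 and the tapetum markers are both highest in Col-0 A, at 13.3 and 4514 FPKM, whereas STP1 is highest in Col-0 C at 178 FPKM.

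The members share a gene structure that the choice of genes did not use, with coding lengths of 1497 to 1581 bp in 3 or 4 coding exons. They lie on chromosomes 1, 3 and 5. Besides STP4 and STP10, STP8 and STP13 lie near each other, with 44596 bp between them on opposite strands of chromosome 5. The 3' end of STP1 (chromosome 1, 3777236 to 3780823) overlaps AT1G11270 on the opposite strand by 438 bp, and STP9 (chromosome 1, 18635955 to 18638449) overlaps the thioredoxin gene THX by 66 bp. AT1G11270 had 1.86, 3.55 and 2.37 FPKM in ice1-2, against 4.40, 3.18 and 3.26 FPKM in Col-0, far below STP1. THX had 16.0, 35.0 and 32.8 FPKM in ice1-2, against 15.3, 9.17 and 14.6 FPKM in Col-0. Without a stated use of strand, reads from the shared bases cannot be told apart.

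The 4 STP genes outside this group did not pass the test either. AT5G61520 was above all Col-0 libraries in all ice1-2 libraries, with 4.66, 5.31 and 4.29 FPKM in ice1-2, against 2.56, 2.25 and 3.15 FPKM in Col-0 (log2 fold change 0.74, SE 0.20, BH-adjusted p = 0.0908 from limma). STP7, a carrier of pentoses, had 16.5, 18.8 and 22.6 FPKM in ice1-2, against 17.8, 14.3 and 23.6 FPKM in Col-0. STP12, whose coding sequence was 73.1% identical to that of STP1, had 2.50, 4.41 and 5.48 FPKM in ice1-2, against 3.37, 2.99 and 3.01 FPKM in Col-0. AT1G34580 was at most 0.170 FPKM in any library.

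The wider sugar pathway was measured in the same fit, where 1.78% of all genes tested were called and 21.4% had an unadjusted p under 0.05. Of 21 other monosaccharide and polyol transporters, in the plasma membrane, vacuole or plastid, 19 were tested and 0 were called. Of the 19, 7 had an unadjusted p under 0.05 (3 higher and 4 lower in ice1-2), and the median log2 fold change was 0.08. Of 17 cell wall invertase, sucrose carrier and SWEET genes 14 were tested and 0 were called. Not all of them supply hexose to the apoplast. Of the 14, 2 had an unadjusted p under 0.05 (lower in ice1-2), and the median was 0.04. Of 8 genes listed for hexose phosphorylation (hexokinases, hexokinase-like genes and fructokinases) 7 were tested and 1 was called. This was AT1G66430, annotated as a pfkB-like carbohydrate kinase, which rose to 26.3, 28.1 and 30.2 FPKM in ice1-2, against 12.8, 13.6 and 13.9 FPKM in Col-0 (log2 fold change 1.04, SE 0.16, BH-adjusted p = 0.0311 from limma). The kinase list had a median of 0.13, and the medians of these 3 lists turned to -0.03, -0.13 and -0.06 with median-ratio scaling.

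Named by likeness over the 6 libraries alone, the genes whose log2 levels were closest to STP1 were HB21, a homeobox gene (Pearson r = 0.995), AT1G77150 (r = 0.995) and ALDH6B2, an aldehyde dehydrogenase (r = 0.990). ALDH6B2 had 20.2, 20.3 and 24.4 FPKM in ice1-2, against 27.8, 37.2 and 59.7 FPKM in Col-0, with the same order of the Col-0 libraries as STP1. Closest to STP4 were BGLU12, a beta glucosidase (r = 0.995), AT5G63070 (r = 0.990) and AT2G28590 (r = 0.987). AT2G28590 had 7.90, 6.50 and 5.74 FPKM in ice1-2, against 8.09, 10.2 and 9.49 FPKM in Col-0, with every ice1-2 library lower. With 18858 genes ranked over 6 points that share depth and genotype, such values describe these libraries and carry no test.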

How the data were processed

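Anther RNA of 3 ice1-2 and 3 Col-0 libraries was analysed. The authors trimmed reads with Trim Galore, mapped them to TAIR10 with TopHat2, assembled transcripts (StringTie, then Cufflinks-CuffMerge), ran HTSEQ 0.6.0 for counting and deposited 1 FPKM value per gene and library. Library sizes, use of strand and treatment of multiply mapped reads: not given in the sources used here. Depth was estimated roughly from the steps between low FPKM values, as 11.7, 19.7 and 14.4 M fragments (M for mega) in ice1-2 A, B and C and 24.3, 27.2 and 22.2 M fragments in Col-0 A, B and C, with 29.3% to 51.4% of low values within 0.05 of a whole step.

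A count test had been planned for count files. Since the values are FPKM, the limma test planned for that case was run. Genes with at least 1 FPKM in at least 3 libraries (18858 of 27825 above 0 in any library) were fitted as log2(FPKM + 0.5) in limma 3.58.1 (R 4.3.3) with a trend and genotype as the only term, tested on simulated data, with Benjamini-Hochberg (BH) adjustment over all genes tested. STP8 and STP10, which failed the filter, took their values from the same fit without it. Sums, shares and the ratio were compared by exact permutation over libraries in scipy 1.17.1 (Python 3.11.15, pandas 2.3.3, numpy 2.4.6), and matplotlib 3.10.9 drew the figures. Coordinates, coding sequence and upstream windows came from RefSeq's TAIR10.1 and were not converted from TAIR10.

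Alternatives were pseudocounts of 0.1 and 1, no filter, median-ratio scaling, library quality weights, a replicate block, no limit on the fold and each library left out. Leaving out Col-0 A and ice1-2 B together was chosen after seeing the data. Genes named were all members, the 4 other STP genes, genes that passed in the other lists (up to 3 a direction), the neighbours of STP4 and STP10, and the 3 genes most correlated with each called member or, with none called, with the 2 members of smallest unadjusted p among those that passed the filter. GRP17, the guard cell markers other than TGG1, AT1G11270 and THX fall outside this rule and were named after their values were seen. The members and the 8 other lists were chosen with earlier results of these data known.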

Additional observations from a re-analysis of the deposited data

How the results depend on the processing

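Over 14 alternatives, the fold changes of 9 members kept their direction. With a replicate block, no limit on the fold or no filter the fold change equals that of the main fit by construction, so these settings could not turn it. The fold change of STP8 turned positive without ice1-2 C (0.011) and ranged from -0.45 to 0.011 over each library left out. None of the 10 members was called under most settings, but 3 were with quality weights, 1 without Col-0 A (the range over each library left out is 0 to 1) and 1 without both Col-0 A and ice1-2 B (STP1, log2 fold change -2.03, BH-adjusted p = 0.00143 from limma). The BH-adjusted p of STP1 ranged from 0.00143 to 0.227, that of STP2 from 0.0448 to 0.325, that of STP4 from 0.0420 to 0.303 and that of STP10 from 0.0462 to 0.282. All genes called, 335 in all, became 164 with median-ratio scaling, 803 with quality weights, 28 without the filter, 15 to 628 with 1 library left out and 728 without Col-0 A and ice1-2 B. The log2 ratio of STP10 to STP4 differed by 3.21 with a pseudocount of 0.1 and by 1.51 with 1. The cause of these shifts was not tested.

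With the replicate letter as a replicate block 35 genes and 0 members were called. Libraries of the same letter did not deviate together (r = -0.21, 0.05 and 0.12), so the letters were not read as pairs. DESeq2 and edgeR were not run, since there are no counts. Depth limits STP8 and STP10, which stay under 1 FPKM, and the guard cell markers that failed the filter.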
